A study of Mus musculus with 17 samples.

Results

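Heat shock chaperones are proteins that hold, fold and refold other proteins. The 10 genes described here are the entries of the count table whose symbol equals Hspa1a, Hspa1b, Hspa8, Dnajb1, Hsph1, Hsp90aa1, Hsp90ab1, Hspb1, Hspd1 or Hspe1, and all 10 were found among 23719 entries. They were listed as cytosolic, but Hspd1 and Hspe1 encode the mitochondrial chaperonin and are called mitochondrial here. HSP70 and HSP90 proteins use ATP to bind and release unfolded segments, J-domain proteins hand substrates to HSP70, and HSP110 proteins such as Hsph1 exchange its nucleotide. When proteins are damaged, heat shock factor 1 quickly raises transcription of the inducible genes, Hspa1a and Hspa1b foremost, so that their RNA can also respond to warming and handling of tissue.

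The RNA came from colons of C57BL/6 mice, all male and 32 to 34 weeks old. The 9 Control mice drank water. The 8 mice of the Gulf War Illness model (GWI) were given PB (pyridostigmine bromide) in their drinking water for 7 days, at 2 mg/kg. PB blocks the enzyme acetylcholinesterase reversibly. The labels give both 21 days of recovery and an end at day 30. The comparison asks which transcripts differ in the colon after PB was withdrawn. The total count per colon was 16744096 to 20741212 in Control and 16293537 to 18389686 in GWI. Levels are given in CPM, each colon's counts scaled to a common total with TMM factors.

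Some colons stood apart. The sample codes have a first part that belongs to 1 mouse or is shared by several, and each first part occurs in 1 group only. The meaning of the codes is not given in the sources used here, and the groups could not be compared within a code. Control replicates 3, 4 and 5 share the first part 4. Control replicate 9 had 19.5% of its counts from mitochondrial genes and a TMM factor of 0.799, the lowest of all colons. The other Control colons had 6.11 to 14.2% mitochondrial counts and the GWI colons 6.26 to 9.76%. In Control replicate 1 the immediate early genes summed to 3677 CPM, and the next Control colon had 1839 CPM. The GWI colons had 1534 to 3321 CPM, so this colon stood apart within Control.

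Tissue markers varied as well. The 10 smooth muscle markers summed to 3690.0, 11584 and 23923 CPM in Control (lowest, median and highest colon) and to 3658, 5142 and 11832 CPM in GWI. Of these markers 7 were lower in GWI and 0 higher in edgeR, beside 13.5% and 13.4% of all tested genes. At an unadjusted p under 0.05 and by DESeq2 0 were higher, and the median log2 fold change was -0.91. Myh11 was the most abundant. Of the 14 colon epithelium markers 6 were higher and 0 lower, beside 13.4% and 13.5% of all tested genes. At an unadjusted p under 0.05 and by DESeq2 0 of these were lower, at a median of 0.39. Their sums were 30132 to 46913 CPM in Control and 33899 to 52171 CPM in GWI, and Car1 was the most abundant. In bulk tissue, fewer cells of a type and less RNA per cell cannot be told apart.

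The 8 enteric neuron markers summed to 69.9, 221 and 463 CPM in Control and to 88.5, 156 and 309 CPM in GWI. All 8 had negative fold changes, with a median of -0.58. None was called by DESeq2 or by edgeR, which called 13.5% of all tested genes lower and 13.4% higher. In edgeR 0 had an unadjusted p under 0.05. Limma-voom with quality weights called 7 lower, in a fit that called 29.5% of all tested genes lower. Uchl1 was the most abundant.

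The group difference was tested in the 14146 genes that passed a filter on low counts, and all 10 chaperone genes passed it. At an adjusted p under 0.05 edgeR called 4 of 10 lower in GWI, namely Hspa1a, Hspa8, Hsp90aa1 and Hspe1, beside 13.5% of all tested genes (1903). It called 0 of 10 higher, beside 13.4% of all tested genes (1889), and at an unadjusted p under 0.05 there were 5 lower and 0 higher, beside 22.1% and 19.3% of all tested genes. DESeq2 called 5 of 10 lower and 0 higher, beside 14.8% and 13.4% of all genes it tested. Limma-voom with quality weights called 6 of 10 lower and 0 higher, beside 29.5% and 27.6% of all tested genes. The fold change was negative in 9 of the 10, beside 7806 of all tested genes. With upper-quartile scaling, which shifted the median over all genes by -0.09, it was negative in 10 of 10, beside 9097 of all tested genes. It was negative in 6 of 10 without Control replicates 3, 4 and 5, and in 4 of 10 with a score of muscle against epithelium markers as a covariate, beside 7744 and 6698 of the genes tested. The median log2 fold change was -0.40 over the 10 and -0.06 over all tested genes. Upper-quartile scaling gave 1214 genes higher and 2992 lower in place of 1889 and 1903, and called 5 of the 10 lower.

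The number of calls changed with single colons, among the chaperone genes and among all genes. Without Control replicates 3, 4 and 5, a comparison chosen after their values were seen, edgeR called 0 of 10 lower, beside 6.22% of 14153 tested genes (881). It also called 0 higher, beside 7.57%, and 2 were lower and 0 higher at an unadjusted p under 0.05, beside 17.5% and 16.3%. With the first part of the code as a random effect, limma-voom called 0 of 10, beside 0.664% of all tested genes lower and 2.65% higher, with 2 of the 10 lower at an unadjusted p under 0.05, beside 10.9%. Without Control replicate 3 or 5, or without GWI replicate 1, 2, 3, 4 or 8, edgeR called 2 of 10 lower, beside 9.41% to 13.7% of all tested genes. Without Control replicate 4 or GWI replicate 6 it called 1, beside 11.1% and 9.39%. Without GWI replicate 7 it called 0, beside 9.21%, with 5 of the 10 lower at an unadjusted p under 0.05, beside 19.3%.

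**Figure D1:**
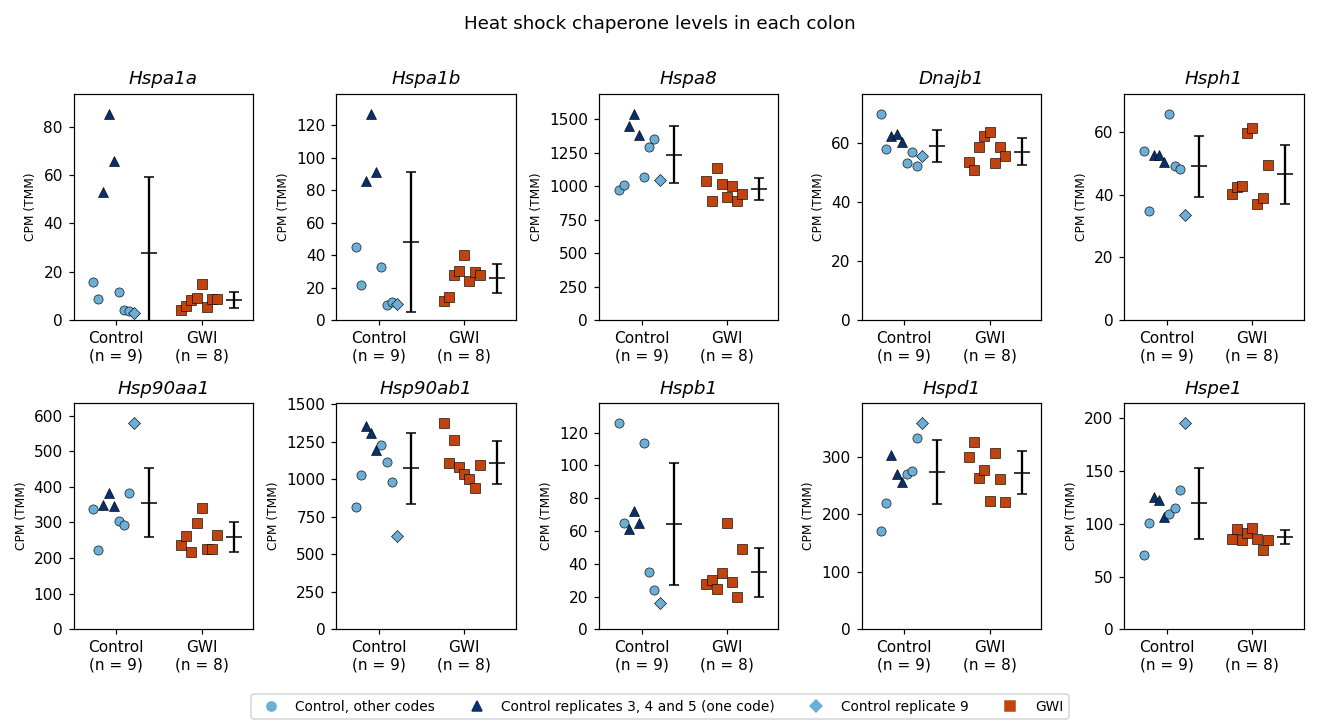
Level of each chaperone gene in each colon, in CPM on a linear axis from 0, with the mean and SD of Control and GWI beside the points. Control replicates 3, 4 and 5 lie at 53.0, 85.2 and 66.0 CPM of Hspa1a, above the other 14 colons.

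Hspa1a and Hspa1b encode the stress-inducible HSP70. Hspa1a was at 2.86, 11.8 and 85.2 CPM in Control (lowest, median and highest colon) and at 4.16, 8.52 and 15.0 CPM in GWI. Control replicates 3, 4 and 5 were highest, at 53.0, 85.2 and 66.0 CPM, and the other Control colons, at 2.86 to 15.9 CPM, covered the whole GWI range. Mean levels were 28.0 ± 31.4 CPM (SD, n = 9) in Control and 8.15 ± 3.32 CPM (SD, n = 8) in GWI. The log2 fold change was -1.78 (SE 0.62, edgeR adjusted p = 0.0413). Without Control replicates 3, 4 and 5 it was 0.05 (SE 0.37, adjusted p = 0.940), in a range of adjusted p of 0.00913 to 0.960 over all alternatives. These 3 colons were left out because they were highest, so a rise was fixed by the choice, and the fit is a description.

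Leaving out 1 colon ended the Hspa1a call for 10 of 17 colons. The edgeR adjusted p was 0.0732 without Control replicate 3, 0.0960 without Control replicate 4 and 0.0811 without Control replicate 5. It was 0.0555 to 0.0746 without GWI replicate 1, 2, 3, 4, 6, 7 or 8.

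Hspa1b was at 9.05, 32.6 and 127 CPM in Control and at 11.9, 28.0 and 40.1 CPM in GWI. The same 3 colons were highest, at 85.6, 127 and 91.0 CPM, and the other Control colons, at 9.05 to 45.0 CPM, overlapped with GWI. Its fold change on the log2 scale was -0.90 (SE 0.49, edgeR adjusted p = 0.167), and leaving out 1 colon gave -1.04 to -0.58. Without the 3 colons it was 0.26 (SE 0.37, adjusted p = 0.645), in a range of adjusted p of 0.0141 to 0.995 over all alternatives. As for Hspa1a, a rise was fixed by leaving out the highest colons. The proportion of the 2 transcripts rests on the same values, and it was highest in these colons. Per 100 counts of Hspa1b there were 61.9, 67.2 and 72.5 counts of Hspa1a in Control replicates 3, 4 and 5. The other Control colons had 28.5 to 46.3 and the GWI colons 23.6 to 39.7.

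Control replicates 3, 4 and 5 were singled out by Hspa1a and Hspa1b, so their order in these genes is a description. Among the other 8 chaperone genes they also lay above the other 14 colons for Hspa8 alone, beside 171 of all tested genes (1.21%). Their enteric neuron markers summed to 363, 439.6 and 389 CPM. Control replicate 1 was higher, at 463 CPM, with 45.0 CPM of Hspa1b. Per 100 CPM of neuron markers Hspa1b was at 23.6, 28.9 and 23.4 CPM in the 3 colons, above the 9.66 to 15.4 CPM of the other Control colons and the 9.21 to 19.4 CPM of GWI. With a score of neuron markers as a covariate, chosen after the levels were seen, the log2 fold change of Hspa1a was -0.54 (SE 0.35, edgeR adjusted p = 0.228, range 0.00913 to 0.960), and that of Hspa1b was near 0 (SE 0.21, adjusted p = 0.995, range 0.0141 to 0.995). With the planned score of muscle against epithelium markers the signs turned, to 0.08 for Hspa1a (SE 0.99, adjusted p = 0.960) and 0.51 for Hspa1b (SE 0.75, adjusted p = 0.627, range 0.0141 to 0.995).

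Both genes have 1 exon and lie on the minus strand, Hspa1b at chr17:34956436-34959238 and Hspa1a at chr17:34969190-34972156 (GRCm38, GENCODE M21). Of all 150-base windows of Hspa1a, 38.1% occur unchanged in Hspa1b, and 40.5% of those of Hspa1b occur in Hspa1a. The authors counted unique hits, so a read that lies within such a window could be assigned to neither gene. Hspa1a shares 564 exon bases with Gm20481 on the opposite strand, and the strand setting of the counting is not given in the sources used here. Tested as a sum, the pair had a log2 fold change of -1.17 (SE 0.53, edgeR adjusted p = 0.103), and the sum was not fitted under the other alternatives.

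The bases before both starts are printed because the pair was high in the same colons. RefSeq promoter entries (GRCm38.p6) exist here for 7 of the 10 genes, and those of Hspa8, Hsp90aa1 and Hsp90ab1 are missing. The 250 bases before the start lie at chr17:34972157-34972406 for Hspa1a and chr17:34959239-34959488 for Hspa1b, both on the minus strand, and 247 of 250 positions are identical. GAANNTTC and TTCNNGAA, the inverted repeats of the heat shock element, were searched for. Each reads the same on both strands, and matches of the 2 may overlap. Capitals mark GAANNTTC.
Hspa1a: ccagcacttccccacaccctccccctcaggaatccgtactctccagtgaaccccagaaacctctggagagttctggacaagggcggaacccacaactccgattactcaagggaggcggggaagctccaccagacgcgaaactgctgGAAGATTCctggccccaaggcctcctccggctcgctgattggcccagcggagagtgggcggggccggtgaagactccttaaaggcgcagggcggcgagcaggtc
Hspa1b: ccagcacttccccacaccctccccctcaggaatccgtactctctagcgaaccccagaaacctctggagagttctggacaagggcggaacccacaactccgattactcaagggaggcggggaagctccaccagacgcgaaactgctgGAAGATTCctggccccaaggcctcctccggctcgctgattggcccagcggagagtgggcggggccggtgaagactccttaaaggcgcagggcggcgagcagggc

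Of 32851 promoter entries, 6.69% hold GAANNTTC in these 250 bases, 7.17% hold TTCNNGAA and 12.8% hold either. Among the 7 chaperone genes with an entry, 6 hold either: Hspa1a, Hspa1b, Hsph1, Hspb1, Hspd1 and Hspe1. Dnajb1 has neither, which says only that these letters are not in its windows. Hspd1 and Hspe1 share 112 exon bases on opposite strands. The entry of Hspe1 and 1 of the 2 entries of Hspd1 hold the same overlapping matches, and the other Hspd1 entry holds none. These matches form a run of 4 alternating units of GAA and TTC, and 0.466% of all entries hold a run of at least 3. A match of letters is a description and not a measured binding site.

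Hspa8 encodes the constitutive HSP70. It was at 969, 1290.4 and 1537 CPM in Control and at 886, 972 and 1132 CPM in GWI. Control replicates 3, 4, 5, 7 and 8 lay above every GWI colon, at 1452, 1537, 1379.7, 1290.4 and 1355 CPM, and 4 of 8 GWI colons lay below every Control colon. Mean levels were 1234 ± 213 CPM (SD, n = 9) and 977 ± 84.3 CPM (SD, n = 8). The log2 fold change was -0.34 (SE 0.11, edgeR adjusted p = 0.0342), and without Control replicates 3, 4 and 5 -0.19 (SE 0.12, adjusted p = 0.268), in a range of 0.000544 to 0.272 over all alternatives. The call ended when 1 of 11 colons was left out, namely Control replicate 3, 4, 5, 7 or 8 or GWI replicate 2, 4, 5, 6, 7 or 8, at adjusted p of 0.0504 to 0.0690. Of the 150-base windows of Hspa8, 22.8% occur in transcripts of pseudogenes.

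Dnajb1 and Hsph1 encode partners of HSP70. Dnajb1, a J-domain protein, was at 52.0, 57.8 and 69.6 CPM in Control and at 50.9, 56.9 and 63.6 CPM in GWI. The groups overlapped almost throughout, and Control replicates 3, 4 and 5 lay inside the range of the other Control colons. The log2 fold change was -0.05 (SE 0.07, edgeR adjusted p = 0.626). Hsph1 was at 33.5, 50.6 and 65.7 CPM in Control and at 37.1, 42.6 and 61.4 CPM in GWI, with a log2 fold change of -0.08 (SE 0.14, adjusted p = 0.691). Here too the groups overlapped, and Control replicates 3, 4 and 5 lay in the middle of Control, at 52.6, 52.6 and 50.6 CPM.

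After each group's mean was removed, the 5 genes most like Hsph1 over 17 colons were C1ra (Spearman's rho 0.907), Inf2 (0.895), Sh3bp1 (0.895), Samd1 (0.890) and Vwa1 (0.887). Among the chaperone genes rho with Hsph1 was 0.716 for Hspb1, 0.618 for Hspa1a, 0.581 for Hspa1b, 0.461 for Dnajb1, 0.341 for Hsp90aa1, 0.319 for Hsp90ab1 and 0.157 for Hspa8. It was near 0 for Hspe1 and -0.365 for Hspd1. The highest of these, Hspb1, ranked 499 among 14145 genes. These values describe 17 colons that also differ in their levels of tissue markers.

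Hsp90aa1 encodes the inducible HSP90. It was at 223, 346 and 578 CPM in Control and at 216, 250.04 and 340.5 CPM in GWI. Control replicate 9 was highest, followed by Control replicate 4 at 384 CPM, and Control replicates 1, 2, 6 and 7 lay within the GWI range. Mean levels were 355 ± 97.1 CPM (SD, n = 9) and 259 ± 42.9 CPM (SD, n = 8). The log2 fold change was -0.46 (SE 0.15, edgeR adjusted p = 0.0318), and without Control replicate 9 -0.33 (adjusted p = 0.0356). Without Control replicates 3, 4 and 5 it was -0.44 (SE 0.18, adjusted p = 0.0968), in a range of 0.00335 to 0.203 over all alternatives. The call also ended without Control replicate 4 or GWI replicate 1, 3, 6 or 7, at adjusted p of 0.0508 to 0.0653.

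Hsp90ab1, the constitutive HSP90, was at 622, 1115 and 1353 CPM in Control and at 939, 1087 and 1371 CPM in GWI. Its lowest value was in Control replicate 9, the colon with the highest Hsp90aa1, and the groups overlapped. The fold change was 0.05 on the log2 scale (SE 0.14, edgeR adjusted p = 0.798), and its sign turned without Control replicate 9 (-0.01) and with upper-quartile scaling (-0.05). Per 100 counts of Hsp90ab1 there were 92.9 counts of Hsp90aa1 in Control replicate 9, 21.6 to 41.6 in the other Control colons and 17.1 to 32.8 in GWI. Of the 150-base windows of Hsp90aa1, 28.5% occur in transcripts of pseudogenes, and 0 of those of Hsp90ab1 do.

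Hspb1 encodes a small heat shock protein that binds unfolding proteins without ATP and is abundant in muscle. It was at 15.8, 64.8 and 126 CPM in Control and at 19.4, 29.3 and 65.0 CPM in GWI. Control replicates 1 and 6 were highest, at 126 and 114 CPM, Control replicates 2, 3, 5, 7 and 8 lay within the GWI range, and Control replicate 9, at 15.8 CPM, lay below it. The log2 fold change was -0.88 (SE 0.35, edgeR adjusted p = 0.0677). With all 17 colons it was called with upper-quartile scaling (adjusted p = 0.0440), by DESeq2 (0.0367) and by limma-voom with quality weights (0.000284). A call also appeared without Control replicate 8 (adjusted p = 0.0368), Control replicate 9 (0.0208) or GWI replicate 5 (0.0324), in a range of 0.000284 to 0.323 over all alternatives.

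Hspb1 followed the smooth muscle markers from colon to colon. Over 17 colons Hspb1 spanned a 7.94-fold range and the summed markers a 6.54-fold range, whereas Hspb1 per 1000 CPM of the markers spanned 4.29 to 6.70 CPM. Its median was 5.13 CPM in Control and 5.73 CPM in GWI, and the groups overlapped. With a score of muscle against epithelium markers as a covariate the log2 fold change of Hspb1 was 0.56 (SE 0.22, edgeR adjusted p = 0.0571, range 0.000284 to 0.323), with its sign turned. Of the 150-base windows of Hspb1, 39.1% occur in the pseudogene Hsp25-ps1.

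**Figure D2:**
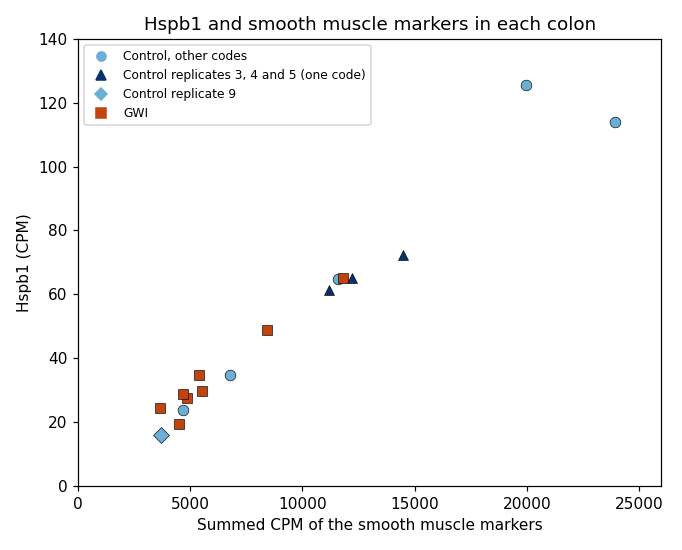
Hspb1 in CPM against the summed CPM of 10 smooth muscle markers, 1 point for each of 17 colons, both axes linear from 0. Control and GWI colons lie along a common band, with Control replicates 1 and 6 at its upper end, at 126 and 114 CPM of Hspb1, and Control replicate 9 lowest, at 15.8 CPM.

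Of 6 other small heat shock proteins 5 were tested. In edgeR 3 were lower in GWI and 0 higher, beside 13.5% and 13.4% of all tested genes. At an unadjusted p under 0.05 and by DESeq2 0 were higher. The median log2 fold change was -0.89, and Hspb8 was the most abundant. Hspb6 fell by 1.098 (edgeR adjusted p = 0.0109, range 0.0000105 to 0.863), Hspb8 by 0.89 (adjusted p = 0.0171, range 0.0000180 to 0.533) and Hspb7 by 1.09 (adjusted p = 0.0328, range 0.0000778 to 0.451) on the log2 scale. The Hspb7 call ended without Control replicate 1, 4 or 6 or GWI replicate 1, 2, 3, 6 or 7 (adjusted p = 0.05004 to 0.0662). With the muscle score as a covariate the values were smaller in size and of the other sign, at 0.05, 0.13 and 0.22. The muscle and epithelium markers differed between the groups themselves, so score and group overlap in this fit.

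Hspd1 and Hspe1 encode HSP60 and HSP10, which together fold proteins in mitochondria. Hspd1 was at 171, 271 and 358 CPM in Control and at 222, 271 and 325 CPM in GWI. The GWI range lay inside that of Control, and the log2 fold change was near 0 (SE 0.13, edgeR adjusted p = 0.985). Hspe1 was at 70.1, 115 and 195 CPM in Control and at 75.0, 85.4 and 96.2 CPM in GWI. Control replicate 9 was highest and Control replicate 1 lowest of all 17 colons, and the other 7 Control colons lay above every GWI colon. Mean levels were 119.5 ± 33.6 CPM (SD, n = 9) and 87.2 ± 6.80 CPM (SD, n = 8).

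The log2 fold change of Hspe1 was -0.45 (SE 0.14, edgeR adjusted p = 0.0231). Without Control replicates 3, 4 and 5 it was -0.45 (SE 0.16, adjusted p = 0.0724), and without Control replicate 9 -0.33 (adjusted p = 0.0219). The call also ended without GWI replicate 7 (adjusted p = 0.0502), in a range of 0.000344 to 0.171 over all alternatives. Per 100 counts of Hspd1 there were 39.7, 41.6 and 54.5 counts of Hspe1 in Control (lowest, median and highest colon) and 28.0, 30.6 and 43.1 in GWI. GWI replicate 5, the highest, was the 1 GWI colon within the Control range.

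**Figure D3:**
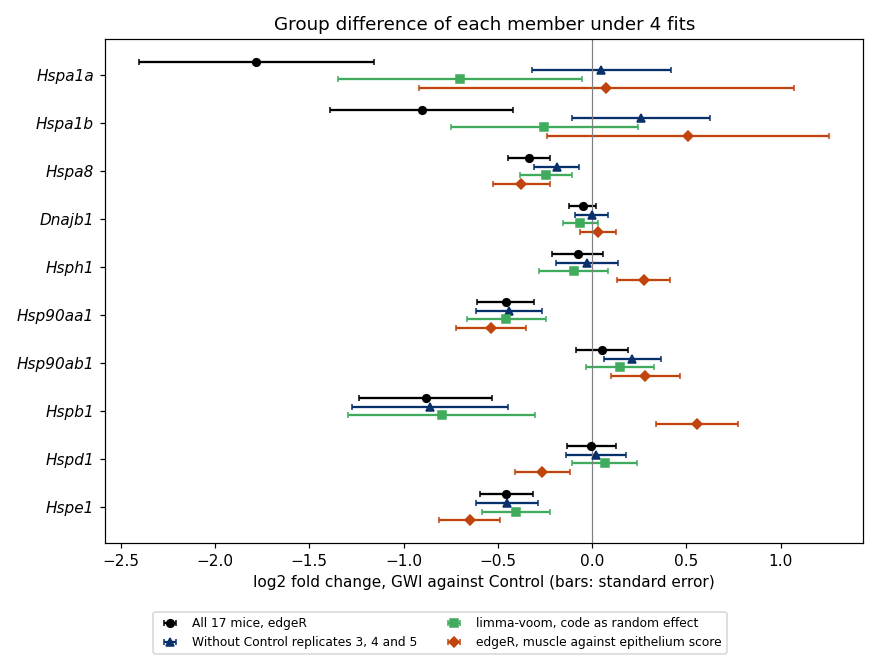
Log2 fold change of GWI against Control for each chaperone gene in 4 fits, with bars of 1 standard error and a line at 0. Hspa1a moves from -1.78 with all 17 colons to 0.05 without Control replicates 3, 4 and 5, and Hspe1 is at -0.45 and -0.45. These 3 colons were chosen for their high Hspa1a and Hspa1b, so a rise of both genes was fixed by the choice.

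Levels of different genes were set side by side per kilobase of exon, with exons merged over all annotated transcripts of a gene. The merged length was 4301 bases for Hspa8, 2999 for Hsp90ab1 and 7266 for Hsph1. It can exceed the length of the transcripts present, which lowers the value, and the order below rests on these lengths. Reads that lie within sequence shared with other transcripts could be assigned to no gene, which can lower genes with such sequence by unequal amounts, and the lengths were not corrected for it. In Control the median was 372 CPM per kilobase for Hsp90ab1, 300.03 for Hspa8, 102 for Hspd1, 87.9 for Hsp90aa1, 77.8 for Hspe1 and 62.9 for Hspb1. Dnajb1 followed at 18.04 CPM per kilobase, then Hspa1b at 11.6, Hsph1 at 6.96 and Hspa1a at 3.99. The ranges over Control colons overlapped between all neighbours in this order except Hspa8, at 225 CPM per kilobase or more, and Hspd1, at 136 or less.

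The spread between mice was compared as the mean absolute deviation from the group median of log2 CPM, scaled for group size. For Hspa1a it was 1.58 in Control and 0.42 in GWI, and for Hspa1b 1.29 and 0.42. The highest Control colon exceeded the lowest 29.8-fold for Hspa1a and 14.02-fold for Hspa1b, and the highest GWI colon the lowest 3.60-fold and 3.38-fold. The deviation was larger in Control for 9 of 10 chaperone genes, with Hsph1 the exception, and for 80.6% of all tested genes. For Dnajb1, Hsph1, Hsp90aa1 and Hspd1 the groups differed by less than 1 SE of the difference.

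At an adjusted p under 0.05 limma called 0 of 14146 genes and 0 of 10 chaperone genes for a difference in spread (adjusted p = 0.732 for both Hspa1a and Hspa1b). At an unadjusted p under 0.05 there were 587 genes, 4.15% of those tested, 535 of them wider in Control, and 2 of 10 chaperone genes, Hspa1a and Hspa1b. The same test made no adjusted call on generated counts that had a much wider spread in 1 group, so 0 calls here is no sign of equal spread. Without Control replicates 3, 4 and 5 the difference in deviation, GWI minus Control, was -0.513 for Hspa1a and -0.481 for Hspa1b, in place of -1.15 and -0.87. As these colons were chosen for their high values, a narrower Control was built into this fit. Dissection order and time are not given in the sources used here.

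Of 6 genes, 5 heat shock factors and the factor binding protein Hsbp1, 4 were tested (Hsf1, Hsf2, Hsf4 and Hsbp1). Of these edgeR called 1 lower and 0 higher, beside 13.5% and 13.4% of all tested genes. At an unadjusted p under 0.05 and by DESeq2 0 were higher, and the median log2 fold change was -0.24. Hsf1, the main activator, was at 0.18 (SE 0.10, edgeR adjusted p = 0.201, range 0.0764 to 0.608), and Hsf2 fell by 0.48 (adjusted p = 0.0153, range 0.000111 to 0.141). Of 8 other HSP70 and HSP110 genes 1 was lower and 0 higher, beside 13.5% and 13.4% of all tested genes. The lower gene was Hspa14, at -0.22 (edgeR adjusted p = 0.0365, range 0.00738 to 0.280). At an unadjusted p under 0.05 and by DESeq2 0 of the 8 were higher, and the median was -0.24. Among fits that left out 1 colon, the Hspa14 call ended without Control replicate 3, 7 or 8 or GWI replicate 1, 2, 3, 4 or 7 (adjusted p = 0.0552 to 0.0788).

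Of 11 other J-domain proteins 5 were lower and 0 higher in edgeR, beside 13.5% and 13.4% of all tested genes. At an unadjusted p under 0.05 and by DESeq2 0 were higher, and the median was -0.19. Dnajc2 fell by 0.55 (edgeR adjusted p = 0.00422, range 0.0000170 to 0.0644), Dnaja1 by 0.51 (adjusted p = 0.00457, range 0.0000392 to 0.0681) and Dnajc21 by 0.25 (adjusted p = 0.0282, range 0.000303 to 0.193) on the log2 scale, and the other 2, named after their values were seen, were Dnajb5 and Dnajc8. Of 10 exchange factors and adaptors of HSP70, 1 was higher and 1 lower, beside 13.4% and 13.5% of all tested genes, at a median of -0.06. Bag6 was higher at 0.47 (edgeR adjusted p = 0.0444, range 0.00172 to 0.125) and Bag1 lower at -0.29 (adjusted p = 0.0250, range 0.00306 to 0.137). The Dnajc21 call ended without GWI replicate 3, 4 or 7 (adjusted p = 0.0548 to 0.0605). The Bag6 call ended without Control replicate 3, 5, 7 or 8 or GWI replicate 1, 2, 3, 4, 5, 6, 7 or 8 (adjusted p = 0.0521 to 0.0778), and the Bag1 call without GWI replicate 4, 6 or 7 (adjusted p = 0.0505 to 0.0580). Bag3, a heat-inducible adaptor, was at -0.13 (adjusted p = 0.573, range 0.00476 to 0.897), and was called lower by limma-voom with quality weights alone.

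Of 14 HSP90 co-chaperones 1 was higher and 3 were lower, beside 13.4% and 13.5% of all tested genes, at a median near 0. Fkbp5 was higher at 0.49 (edgeR adjusted p = 0.0190, range 0.00142 to 0.173). Ptges3 fell by 0.49 (adjusted p = 0.00459, range 0.0000111 to 0.0935), Cacybp by 0.59 (adjusted p = 0.0117, range 0.000129 to 0.117) and Chordc1 by 0.38 (adjusted p = 0.0346, range 0.00303 to 0.173) on the log2 scale. The Chordc1 call ended without Control replicate 6, 7 or 8 or GWI replicate 1, 2, 3, 7 or 8 (adjusted p = 0.0510 to 0.0620). Prefoldin delivers substrates to the cytosolic chaperonin TRiC. Of 14 subunits of the 2 complexes 4 were lower and 0 higher, beside 13.5% and 13.4% of all tested genes. At an unadjusted p under 0.05 and by DESeq2 0 were higher, and the median was -0.25. Pfdn5 was at -0.67 (edgeR adjusted p = 0.00337, range 0.00000250 to 0.0535), Pfdn2 at -0.33 (adjusted p = 0.0157, range 0.0000182 to 0.209) and Pfdn4 at -0.65 (adjusted p = 0.0203, range 0.000564 to 0.202). The fourth, named after its value was seen, was Vbp1.

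Of 9 other mitochondrial chaperones and proteases edgeR called 0, beside 13.5% of all tested genes lower and 13.4% higher. There were 0 at an unadjusted p under 0.05 and 0 by DESeq2, and the median was 0.18. Limma-voom with quality weights called 1 lower and 2 higher, beside 29.5% and 27.6% of all tested genes. Of 10 chaperones of the endoplasmic reticulum 5 were higher and 0 lower in edgeR, beside 13.4% and 13.5% of all tested genes. Lower were 1 at an unadjusted p under 0.05, 0 by DESeq2 and 1 by limma-voom with quality weights, and the median was 0.32. Calr was at 0.70 (edgeR adjusted p = 0.00995, range 0.000179 to 0.0735), Hyou1 at 0.72 (adjusted p = 0.0202, range 0.00358 to 0.0654) and Sdf2l1 at 0.43 (adjusted p = 0.0332, range 0.000124 to 0.670). The Sdf2l1 call ended without Control replicate 2, 3, 4, 5 or 6 or GWI replicate 1, 2, 3, 4 or 6 (adjusted p = 0.0508 to 0.0702). The other 2, named after their values were seen, were Pdia4 and Dnajb11. Hspa5 was at 0.35 (adjusted p = 0.0637, range 0.0135 to 0.635), and was called by DESeq2, by limma-voom with quality weights and without Control replicate 8 or GWI replicate 5 (adjusted p = 0.0300 to 0.0359). Whether these genes differ from the 10 chaperone genes in direction was not tested.

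Genes that respond to cold, handling and hormones were read beside the chaperones. Rbm3, a cold-inducible RNA-binding protein, was at 235, 406 and 945 CPM in Control and at 179, 225 and 243 CPM in GWI. Control replicate 9 was highest, and the groups met only at Control replicate 1, at 235 CPM. Rbm3 fell by 1.05 (SE 0.20, edgeR adjusted p = 0.00203) on the log2 scale, and Cirbp, the other of the 2 cold-inducible genes, was at -0.15 (adjusted p = 0.319, range 0.0224 to 0.823), the median being -0.60.

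Of 18 immediate early genes 17 were tested. In edgeR 5 were higher and 0 lower, beside 13.4% and 13.5% of all tested genes, at a median of 0.42. At an unadjusted p under 0.05 and by DESeq2 0 were lower, and by limma-voom with quality weights 1 was. The 5, named after their values were seen, were Junb, Ier2, Btg2, Zfp36 and Socs3. Fos was at 1.05 (edgeR adjusted p = 0.0866, range 0.000601 to 0.408), Jun at 0.60 (0.0656, range 0.000224 to 0.417), Atf3 at 0.89 (0.133, range 0.00464 to 0.375), Dusp1 at 0.61 (0.0968, range 0.00123 to 0.386) and Egr1 at -0.34 (0.506, range 0.0673 to 0.920). Fos, Jun, Atf3 and Dusp1 were called higher by limma-voom with quality weights and with either marker score as a covariate, and Jun also by DESeq2. Without Control replicate 1, Fos (edgeR adjusted p = 0.00137), Jun (0.000930), Atf3 (0.00464) and Dusp1 (0.00123) were also called. Leaving out 1 colon gave log2 fold changes of 0.83 to 1.64 for Fos and 0.53 to 0.86 for Jun. The range was 0.65 to 1.42 for Atf3, 0.53 to 0.94 for Dusp1 and -0.54 to -0.07 for Egr1. In Control replicates 3, 4 and 5, where Hspa1a was highest, Fos was at 26.5, 40.7 and 43.7 CPM, within the 11.3 to 185 CPM of the other Control colons and below the 48.1 to 205 CPM of GWI. Control replicate 1, with the highest Fos of Control, had 15.9 CPM of Hspa1a.

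Of 8 glucocorticoid targets 3 were higher (Fkbp5, Sgk1 and Errfi1) and 1 lower (Zbtb16), beside 13.4% and 13.5% of all tested genes. Errfi1 and Zbtb16 were named after their values were seen, and the median was 0.35. Sgk1 was at 1.27 (edgeR adjusted p = 0.00109), Tsc22d3 at 0.16 (adjusted p = 0.629, range 0.0488 to 0.949) and Per1 at 0.21 (adjusted p = 0.451, range 0.149 to 0.776). Of 15 core clock genes 3 were higher and 7 lower, beside 13.4% and 13.5% of all tested genes, at a median of 0.08. The higher genes were Arntl, Npas2 and Nfil3, the last 2 named after their values were seen. Arntl was at 1.72 (adjusted p = 0.000639), Dbp at -1.12 (adjusted p = 0.000947) and Nr1d1 at 0.24 (adjusted p = 0.452, range 0.0746 to 0.917). The part of clock time in the chaperone levels was not tested.

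Markers of other tissues were read as well, beside 13.5% of all tested genes called lower by edgeR and 13.4% called higher. Of 9 pancreatic acinar markers only Cela1 passed the filter, Cpa1 had 0 counts in all 17 colons, and edgeR called 0, with 1 lower at an unadjusted p under 0.05 and 1 lower by DESeq2. Of 7 small intestine markers 5 were tested and 1 was lower, Fabp6, named after its value was seen, which was at 314 CPM in Control replicate 7 and 119 CPM in Control replicate 6 and at most 6.90 CPM elsewhere. Apob was the most abundant of these. Of 7 skeletal muscle markers 3 were tested and 1 was lower, Ckm, the most abundant. Of 5 adipocyte markers 1 was higher, Cidec, named after its value was seen, with sums of 34.8 to 211 CPM in Control and 80.6 to 584 CPM in GWI and Cfd the most abundant. Of 8 leukocyte markers 6 were tested and edgeR called 0, with 1 lower at an unadjusted p under 0.05, 0 by DESeq2 and 3 lower by limma-voom with quality weights, beside 29.5% of all tested genes. They had sums of 19.5 to 40.6 CPM in Control and 18.5 to 29.1 CPM in GWI, and Ptprc was the most abundant.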

How the data were processed

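RNA was sequenced from 17 colons, and the authors deposited a table of raw counts per gene, made with Trimmomatic 0.36, STAR 2.5.2b on GRCm38 and featureCounts. The unit of the deposited values is counts, and every column matched a sample. The chaperone genes and gene lists were chosen with earlier results of these data known. Genes were filtered with filterByExpr, scaled by TMM and tested with the robust quasi-likelihood test of edgeR 4.0.16 in R 4.3.3, GWI against Control, with Benjamini-Hochberg adjustment over 14146 genes and a threshold of 0.05. Spread was tested with limma 3.58.1 on absolute deviations of log2 CPM (prior count 2) from the group median, scaled for group size. Alternatives used DESeq2 1.42.0, limma-voom, other scalings, filters and covariates, the replicate number as a block, and each colon left out. The procedures were tested on simulated data, where the spread test found planted differences before adjustment only. Named genes were the 10 chaperones, fixed regulators, up to 3 genes of smallest p per chaperone list and direction, the 5 most like Hsph1 and the most abundant marker of each cell type list. Further called genes of the lists were named after their values were seen, and the text marks them. Hspa1a, the lowest of the 10, had at least 41 counts per colon. Positions are from GENCODE M21 and promoters from RefSeq (GRCm38.p6).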

Additional observations from a re-analysis of the deposited data

Results flagged for a closer look

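At the highest or lowest of its group, a value was listed when its gap to the next colon was large against the group's range (Dixon's test). With normally distributed values chance flags about 1 in 20 groups. CPM on a linear scale need not be so distributed, so that share is only a rough guide. Here 31 of 134 groups had such a value. Many came from the same colons, and the measures share colons and scaling.

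Control replicate 1 was the highest of its group for Fos at 185 CPM (next colon 56.7), Jun at 277 CPM (next colon 140.3), Atf3 at 95.01 CPM (next colon 32.2) and Dusp1 at 55.0 CPM (next colon 21.2). In the same colon this held for Tsc22d3 at 64.5 CPM (next colon 42.8), Sgk1 at 94.0 CPM (next colon 54.7), Arntl at 16.1 CPM (next colon 6.54) and immediate early genes, summed, at 3677 CPM (next colon 1839). In the same colon this held for glucocorticoid targets, summed, at 1139 CPM (next colon 613). Control replicate 1 was the lowest of its group for mitochondrial chaperones and proteases, summed, at 676 CPM (next colon 836).

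Control replicate 8 was the highest of its group for Sdf2l1 at 38.5 CPM (next colon 27.0).

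Control replicate 9 was the highest of its group for Hsp90aa1 at 578 CPM (next colon 384), Hspe1 at 195 CPM (next colon 132), Rbm3 at 945 CPM (next colon 538) and Dnaja1 at 334 CPM (next colon 255). In the same colon this held for Cacybp at 114 CPM (next colon 75.8), Pfdn5 at 242 CPM (next colon 159), Pfdn4 at 31.6 CPM (next colon 19.1) and J-domain proteins, summed, at 1419 CPM (next colon 1111). In the same colon this held for cold-inducible RNA-binding proteins, summed, at 999.7 CPM (next colon 586). Control replicate 9 was the lowest of its group for Calr at 166 CPM (next colon 328).

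GWI replicate 1 was the lowest of its group for Dnaja1 at 135 CPM (next colon 158).

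GWI replicate 5 was the highest of its group for Hspa1a at 15.0 CPM (next colon 9.07), Bag3 at 74.0 CPM (next colon 52.0), Egr1 at 34.4 CPM (next colon 20.4) and Tsc22d3 at 82.0 CPM (next colon 43.5). In the same colon this held for Arntl at 45.5 CPM (next colon 23.7) and Hspb7 at 43.4 CPM (next colon 19.7). GWI replicate 5 was the lowest of its group for mitochondrial chaperones and proteases, summed, at 709 CPM (next colon 848).

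GWI replicate 7 was the highest of its group for adipocyte markers, summed, at 584 CPM (next colon 268).

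GWI replicate 8 was the highest of its group for Pfdn2 at 34.9 CPM (next colon 28.8).

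Control replicate 9 also had the largest share of mitochondrial counts and the lowest TMM factor, and Control replicate 1 the highest enteric neuron marker sum. The part of these in the values above was not tested.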

How the results depend on the processing

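The group difference was fitted in 31 alternatives, 28 planned and 3 chosen after seeing the data: without Control replicates 3, 4 and 5, also without Control replicate 9, and with a neuron marker score as a covariate. Over all results and alternatives, 1501 values kept direction and side of the threshold, 163 lost a call, 31 gained one, 50 changed sign and 27 counts moved by more than 1.5 times. The cause of these changes was not tested, except that fewer colons were fitted where some were left out.

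All genes called higher (1889) and lower (1903) became 1214 and 2992 with upper-quartile scaling, which shifted the median log2 fold change of all genes by -0.09. They became 3901 and 4175 with limma-voom quality weights, 375 and 94 with the code as a random effect (correlation 0.621), 1071 and 881 without Control replicates 3, 4 and 5, and 949 and 818 also without Control replicate 9. Lower calls became 826 with the replicate number as a block. The values gave no sign that the numbers pair mice: of 8 same-number pairs 1 had a correlation over 0.1, and 0 controls matched their own number best. The labels give no pairing, and correlations cannot exclude one. Leaving out 1 colon gave 1472 to 2523 genes higher and 1309 to 2295 lower.

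Chaperone genes called lower (4) became 0 with the code as a random effect, with the block, without Control replicates 3, 4 and 5 and also without Control replicate 9, and 2 with no filter and with the muscle covariate. All tested genes called lower were 0.664%, 5.84%, 6.22%, 5.74%, 8.49% and 16.6% in these 6 fits, in place of 13.5%. Leaving out 1 colon gave 0 to 5 of the 10, beside 9.21% to 16.3%. Chaperone genes called higher were 0 of 10 in each alternative of edgeR, DESeq2 or limma-voom, beside 2.65% to 27.6% of all tested genes. Calls of spread by limma were also 0 of 10 in each alternative, and the main fit called 0 of 14146 genes.

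With the muscle covariate the sign changed for Hspa1a (0.0755), Hspa1b (0.508), Dnajb1 (0.0320), Hsph1 (0.273), Hspb1 (0.557), Bag3 (0.395), Egr1 (0.649), Hspb6 (0.0488), Hspb8 (0.129) and Hspb7 (0.222). With the neuron covariate it changed for Hspa1b (0.00184), Bag3 (0.0427) and Egr1 (0.221). Without Control replicates 3, 4 and 5, chosen for high Hspa1a and Hspa1b, it changed for Hspa1a (0.0494), Hspa1b (0.260), Hspd1 (0.0194), Bag3 (0.0433) and the spread of Hsph1 (-0.0947). Without Control replicate 9 as well it changed for Hspa1b (0.102), Hspd1 (0.0923) and Tsc22d3 (-0.0356). Hsp90ab1 turned with upper-quartile scaling (-0.0463), quality weights (-0.115) and the block (-0.0158). Hspd1 turned with quality weights (0.0683), the random effect (0.0668), no filter (0.00281) and the block (0.0643), and Tsc22d3 with the random effect (-0.0394).

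Leaving out 1 colon gave -0.00983 to 0.0993 for Hsp90ab1, -0.0572 to 0.0620 for Hspd1 and -0.0909 to 0.331 for Tsc22d3. For the difference in spread it gave -0.0294 to 0.00276 for Dnajb1, -0.0423 to 0.0693 for Hsph1, -0.109 to 0.0104 for Hsp90aa1 and -0.0846 to 0.0198 for Hspd1. Rbm3, Sgk1, Arntl and Dbp were called in the same direction in all 31 alternatives.

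Depth limits Hspa1a most, with 41 counts in its lowest colon. The groups could not be compared within a code.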
